A study of Plecoglossus altivelis with 9 samples.

Results

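The step from 0.5 to 5 μg/ml LECT2 in ayu macrophages was described with 6 of the 9 arrays of the series, 3 at each dose, as the sample titles and treatments give the dose. The cells were the adherent cells of the head kidney of ayu (Plecoglossus altivelis), a teleost fish, kept as macrophages in culture. LECT2, short for leukocyte cell-derived chemotaxin 2, was given for 3.5 h at 0, 0.5, or 5 μg/ml, and the 3 arrays at 0 μg/ml are used here to estimate the spread and for reference. No other agent or genotype separates the groups. According to the labels, replicates were independent experiments with cells of different fish. Total RNA was labeled with Cy3 and hybridized to custom Agilent arrays with 49077 probes and 1 RNA sample per array.

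LECT2 is a secreted protein that was first described as an attractant of neutrophils and is made mainly by the liver. In mice it also acts on macrophages, through the C-type lectin receptor CD209a. The head kidney is the main blood-forming organ of teleost fish and a usual source of their macrophages. The comparison of the 2 LECT2 doses asks which transcripts differed between cells given more and cells given less of the protein. The files do not pair the probes with genes and hold no probe sequences, so the results are given for probes. The macrophage identity of the cells and the share of other leukocytes could not be checked against marker genes. In such a culture, fewer cells of a type and less RNA per cell cannot be told apart.

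A probe is called detected on an array where the extraction software marked it as well above background. The test took in each probe detected on the complete set of 3 arrays at 0.5 μg/ml, at 5 μg/ml, or at both. This held for 19331 of 49077 probes (39.4%), of which 15059 were detected on all 6 arrays. Between 16531 and 24519 probes per array were detected at 0.5 μg/ml, and between 20190 and 24887 at 5 μg/ml. Levels are log2 intensities minus the 75th percentile of the array, so that a level of 0 is the intensity at that percentile. The arrays of replicate 2 at 0 and at 0.5 μg/ml were less like the other arrays. Over the 15059 probes they correlated with each other at r = 0.987, but at 0.905 to 0.953 with the other 7 arrays.

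Most probes differed little between the doses, and the long tail of the distribution lay on the side of the higher dose. Over the 15059 probes measured on all 6 arrays, the change from 0.5 to 5 μg/ml had a median of 0.0035 on the log2 scale and quartiles of -0.23 and 0.24. A change of more than 1 on the log2 scale (over 2-fold) was seen upward for 285 probes (1.89%) and downward for 89 (0.591%). Beyond 2 on the log2 scale (over 4-fold), 23 probes were higher and 1 was lower.

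**Figure D1:**
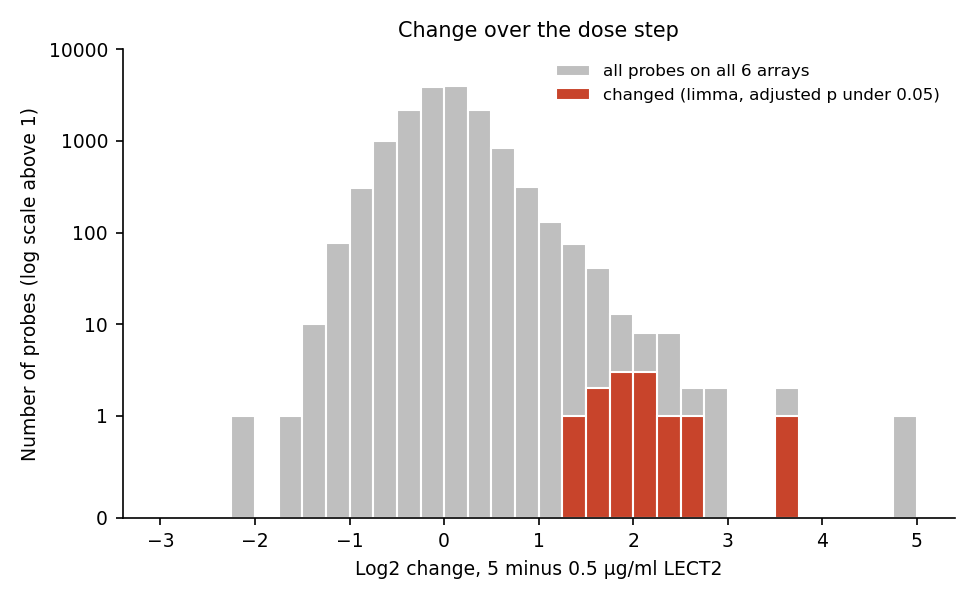
Number of probes (y axis, log scale above 1) by the log2 change from 0.5 to 5 μg/ml LECT2 (x axis, bins of 0.25) for the 15059 probes detected on all 6 arrays. Gray bars count all of them and red bars the 12 that passed the test, which all lay on the right.

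In a limma fit over all 9 arrays, 40 of 19331 probes (0.207%) were changed at an adjusted p under 0.05, and all 40 were higher at 5 μg/ml. Their adjusted p ran from 0.00674 to 0.0484. No probe was lower at this threshold by limma, where the lowest adjusted p of a lower probe was 0.142. At an unadjusted p under 0.05 in limma, 1135 probes were higher and 549 were lower. The filter had part in this, with 3970 probes let in through 5 μg/ml only and 302 through 0.5 μg/ml only. Over the 15059 probes on all 6 arrays, where the filter cannot set the direction, 593 were higher and 422 lower. On all 40 probes the 3 arrays at 5 μg/ml lay above the 3 at 0.5 μg/ml, as they did for 8.54% of all tested probes. The 40 were called on these same arrays, so this separation and its size are not separate evidence. The distance from the highest array at 0.5 to the lowest at 5 μg/ml was 0.93 to 3.29 on the log2 scale (median 1.53), and it was over 1 for 37 of the 40. The number of changed probes rested on single arrays. Without replicate 3 at 5 μg/ml none passed (1222 at an unadjusted p under 0.05), and without replicate 3 at 0.5 μg/ml 108 passed, 96 higher and 12 lower. Without any other single array 3 to 31 passed, all higher except for 1 lower probe without replicate 1 at 0.5 μg/ml. With the pair of replicate 2 arrays at 0 and 0.5 μg/ml left out, 66 passed, of which 62 were higher and 31 were among the 40.

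The 12 changed probes that were detected on all 6 arrays (0.0797% of 15059) give a size of change that the background does not bound. They rose by 1.31 to 3.51 on the log2 scale (median 1.98), which is 2.48- to 11.4-fold (median 3.95-fold), and 6 of them rose more than 4-fold. Their intensities were 64.3 to 5163 at 0.5 μg/ml and 481 to 21500 at 5 μg/ml. The standard errors of the 12 changes were 0.21 to 0.45. The smallest distance between the nearest arrays of the doses was 1.02 and the largest 2.56 on the log2 scale, with a median of 1.40. All 12 were also detected on all 3 arrays at 0 μg/ml. In untreated cells the mean level of a probe was between -0.98 and 3.40, with a median of 1.67. At the lower dose it was between -0.71 and 4.15, with a median of 2.53, and at the higher dose between 1.60 and 6.10, with a median of 4.70. These probes were thus measurable at every dose, with the highest mean at 5 μg/ml. With 1 array left out, the probes detected on all remaining arrays of the 2 doses were counted anew. Without replicate 2 at 5 μg/ml none of 15166 passed (848 at an unadjusted p under 0.05 in limma). Without replicate 3 at 5 μg/ml none of 15188 passed (684 at an unadjusted p under 0.05 in limma). Without replicate 3 at 0.5 μg/ml 30 of 15068 passed, 26 of them higher.

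The largest change among the 12 was that of probe A_1000000_P0025598. Its level was 2.10, 0.55, and 1.85 in replicates 1 to 3 at 0 μg/ml. It was 3.08, 1.86, and 2.83 at 0.5 μg/ml and 6.39, 5.65, and 6.27 at 5 μg/ml. All 3 arrays at 5 μg/ml were far above every array at the lower doses, and 1 array at 0 μg/ml lay above the lowest at 0.5 μg/ml. In intensity, the arrays at 0.5 μg/ml read 1177, 607, and 1714, and those at 5 μg/ml 15644, 9385, and 21500. The mean level rose from 2.59 ± 0.65 to 6.10 ± 0.40 (SD, n = 3 each), a change of 3.51 with a standard error of 0.45 (limma, adjusted p = 0.0226). It was higher under each of the 28 alternatives run, by 3.06 to 3.78. Its pick for doses that did not overlap fixed the direction where arrays were left out. The limma adjusted p ran from 0.000313 to 0.325 and missed the threshold in 8. Those 8 include leaving out replicate 3 at 0, replicate 1 at 0.5, or any 1 array at 5 μg/ml, with adjusted p of 0.054, 0.093, and 0.0746 to 0.146. The next largest change among the 12 was 2.60, or 6.07-fold.

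**Figure D2:**
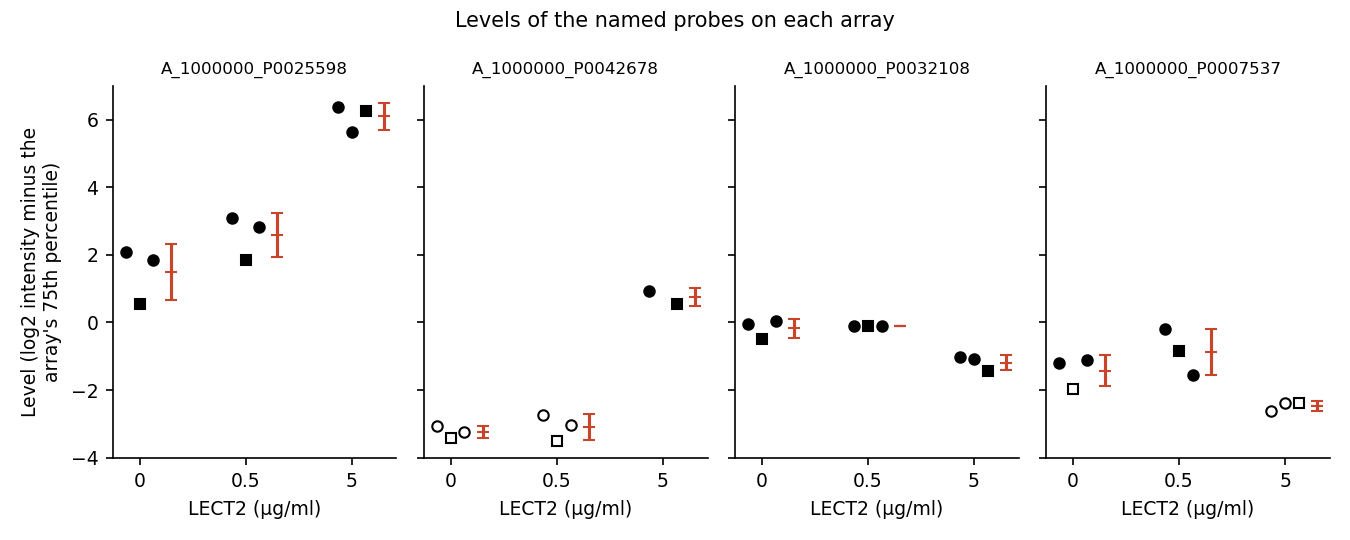
Level (log2 intensity minus the 75th percentile of the array, y axis) of the 4 named probes on each array by LECT2 dose (x axis, μg/ml), with the mean and SD of each dose in red. Circles are arrays of the first scan and squares of the second, filled where the probe was detected. The first probe goes from a mean of 2.59 at 0.5 to 6.10 at 5 μg/ml. The second is detected at 5 μg/ml only, and the last 2 are lower there.

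The other 28 changed probes were detected on all 3 arrays at 5 μg/ml but not on every array at 0.5 μg/ml. They had passed the filter through the higher dose only, which favors a higher level there. At 0.5 μg/ml 13 of them were detected on no array, 10 on 1 array, and 5 on 2 arrays. In untreated cells 20 of the 28 were on no array, 4 were on 1 or 2 arrays, and 4 were on all 3. Their fitted changes were 1.37 to 4.22 on the log2 scale, with a median of 2.41. These changes rest in part on intensities that were not well above background. For the 13 probes detected on no array at 0.5 μg/ml only a lower bound of the change holds. It is the mean at 5 μg/ml over the lowest signal that counted as detection on each array at 0.5 μg/ml. Where the signal of the probe itself was higher, that signal was taken. By this bound the 13 probes were at least 1.10- to 5.11-fold higher, with a median of 1.66. With these 13 at their bound, the median change of all 40 probes was 1.85 in place of 2.12.

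The highest of these bounds belonged to probe A_1000000_P0042678. It was not detected on any array at 0 or 0.5 μg/ml, where its levels were -3.06, -3.41, and -3.23 at 0 and -2.73, -3.51, and -3.03 at 0.5 μg/ml. At 5 μg/ml its level was 0.94 in replicate 1 and 0.55 in replicate 3. The spot of replicate 2 bore an outlier mark and was left out of the fit, although its intensity of 378 was between the 358 and 408 of the other arrays at this dose. The arrays at 0 and 0.5 μg/ml overlapped and read intensities of 14.7 to 29.5. By the bound from the processed intensities, the probe was at least 5.11-fold higher at 5 than at 0.5 μg/ml. It had entered the test through the higher dose alone. Its limma adjusted p of 0.00674 rests on intensities not well above background at 0.5 μg/ml, so that p adds no support. The adjusted p was 0.000247 to 0.132 over 26 alternatives and missed the threshold in 4. Those were another background correction, no filter on dim probes, the first scan alone, and leaving out replicate 3 at 5 μg/ml (adjusted p = 0.0686). With the other background correction (normexp) the fitted change was 1.45, which is smaller than the bound of 2.35 on the log2 scale. That correction started from the median spot and background intensities and was run with an offset of 50 added to every intensity. The part of each in the smaller change was not tested, and the bound holds for the processed intensities only.

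Both doses were also set beside untreated cells for the 40 changed probes. The comparisons share arrays, so their values are not separate evidence. In untreated cells 20 of the 40 were detected on no array, and at 0.5 μg/ml 13 were on none. The differences of such probes rest in part on intensities not well above background, so they do not give a size of change. From 0 to 5 μg/ml the 40 probes differed by 0.94 to 5.26 on the log2 scale, with a median of 2.60. From 0 to 0.5 μg/ml the same probes differed by -1.13 to 1.82, with a median of 0.39. The mean at 0.5 μg/ml lay within the range of the 3 untreated arrays for 12 of the 40, a count that takes in such probes. For the 12 probes on all 6 arrays, the differences from 0 μg/ml were 0.21 to 1.09 at the lower dose (median 0.59) and 1.60 to 4.60 at the higher (median 2.53). The probes were chosen for a large step from 0.5 to 5 μg/ml, so no share of the whole distance is read from these values. Over the 19331 tested probes, 203 (1.05%) passed in the comparison of 5 with 0 μg/ml, 196 of them higher at 5 μg/ml. In the comparison of 0.5 with 0 μg/ml, 0 passed in limma. The filter asked for detection at 0.5 or 5 μg/ml and not at 0 μg/ml. Probes detected in untreated cells only were not tested, so the filter had part in the balance of higher and lower.

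**Figure D3:**
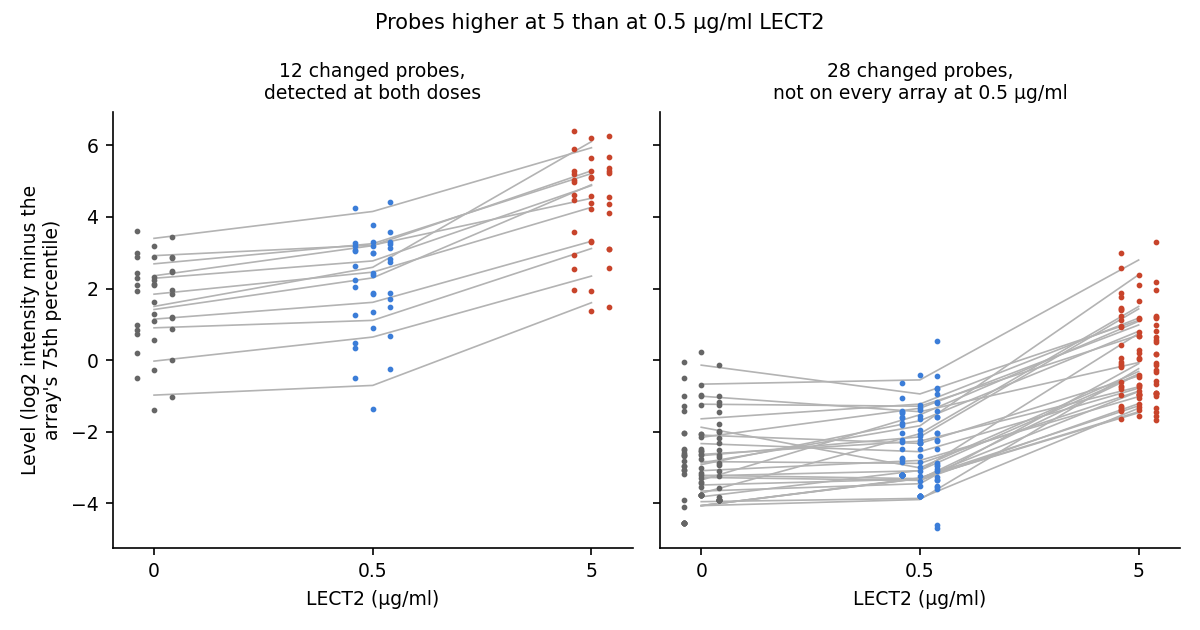
Level (log2 intensity minus the 75th percentile of the array, y axis) of the 40 changed probes by LECT2 dose (x axis, μg/ml). Points are single arrays (gray at 0, blue at 0.5, red at 5 μg/ml) and lines join the means of a probe. The 12 probes on the left were detected on all 6 arrays and the 28 on the right were not on every array at 0.5 μg/ml. Between 0 and 0.5 μg/ml the median difference of all 40 was 0.39. Between 0.5 and 5 μg/ml it was 2.12, or 1.85 with the 13 probes detected on no array at 0.5 μg/ml at their lower bound. The probes were called for the step from 0.5 to 5 μg/ml, so its larger size follows in part from that choice.

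Changes in the other direction were smaller, and none passed the test. Among lower probes on all 6 arrays whose doses did not overlap, A_1000000_P0032108 had the lowest unadjusted p, and was picked for that. Its level was -0.10, -0.11, and -0.10 at 0.5 μg/ml and -1.03, -1.09, and -1.45 at 5 μg/ml. The untreated arrays read -0.06, -0.49, and 0.04, so that only the arrays at 5 μg/ml were low. The difference was -1.09 with a standard error of 0.24 (limma, adjusted p = 0.154, and 0.0232 to 1.00 over 28 alternatives). It passed with the scan as a block and with array weights.

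The second probe of this kind, A_1000000_P0007537, was detected on all 3 arrays at 0.5 μg/ml and on none at 5 μg/ml. Its level was -0.21, -0.83, and -1.56 at 0.5 μg/ml and -2.63, -2.38, and -2.37 at 5 μg/ml. The arrays at 0.5 μg/ml were spread widely and still lay above all those at 5 μg/ml. The untreated arrays, at -1.20, -1.96, and -1.11, fell between the doses or among those at 0.5 μg/ml. The probe was at least 2.29-fold lower at the higher dose, with a limma adjusted p of 0.171 (0.0082 to 1.00 over 26 alternatives). This bound, too, holds for the processed intensities only. With normexp and its offset of 50, the fitted difference was -0.62, which is smaller than the bound. The cause was not tested. The probe passed in 3 of the 26, of which 1 left out replicate 3 at 0.5 μg/ml (adjusted p = 0.0472).

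Detection was counted as a readout beside the level. Of the probes detected on all 3 arrays at 5 μg/ml, 81 were on none of the arrays at 0.5 μg/ml, 1246 on 1, and 2643 on 2. In the reverse direction, 2 probes were on all 3 arrays at 0.5 μg/ml and on none at 5 μg/ml, 56 on 1, and 244 on 2. A total of 20650 probes were on none of the 6 arrays. Detection was uneven between the arrays of the lower dose. Replicate 1 at 0.5 μg/ml alone missed 2211 probes that the other 5 arrays all detected, against 423 for replicate 2 and 9 for replicate 3 at this dose and 8 to 129 for the arrays at 5 μg/ml. The 2211 probes are among the 2643 that were on 2 arrays at 0.5 μg/ml, so most of that count rests on replicate 1 at this dose. Most of the 1246 were detected at 0.5 μg/ml on replicate 3 alone, and almost none on replicate 1, as the counts below with 1 array left out show. Replicates 1 and 2 thus both missed most of them. The 81 probes were missed by all arrays at 0.5 μg/ml, including replicate 3, the one with most detected probes at that dose. Without that replicate the number was 1264 (18 in reverse), without replicate 2 it was 143 (39 in reverse), and without replicate 1 it was 82 (63 in reverse). Leaving out 1 of the arrays at 5 μg/ml gave 145 to 311 probes, with 7 to 48 in reverse.

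**Figure D4:**
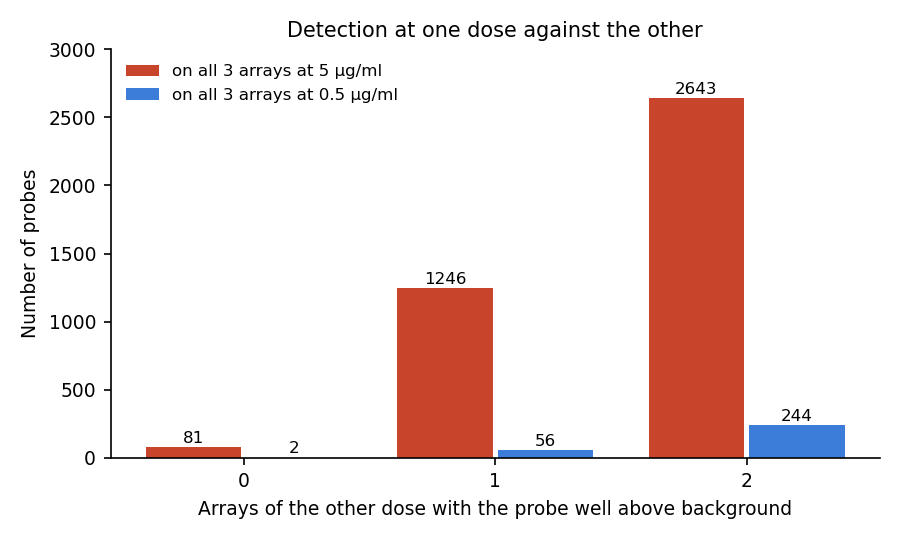
Number of probes (y axis) detected on all 3 arrays of one dose, by the number of arrays of the other dose on which they were detected (x axis). Red bars are probes on all arrays at 5 μg/ml and blue bars probes on all arrays at 0.5 μg/ml. The bars at 0 arrays stand for 81 and 2 probes.

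The 81 probes were mostly dim. In untreated cells 50 of them were on no array, 24 on 1, 5 on 2, and 2 on all 3. In 54 of the 81 the arrays of the doses did not overlap, and 13 passed the test. Over all 19331 tested probes, 1651 (8.54%) were apart and higher and 40 (0.207%) passed. The 81 were picked for detection at 5 μg/ml only, so their larger shares follow in part from that choice and add no support. The lower bound of the 81 was over 2-fold for 9 probes and over 4-fold for 1. For 31 probes the bound was not above 1, so for these no change in level can be given. Both probes of the reverse kind were on 2 of the 3 untreated arrays.

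A count that does not rest on the estimated spread gave more probes on either side. With 3 arrays against 3, some probes lie apart by the order of the arrays alone. The shares below were not tested against that, so they are not counts of changed probes. The 3 arrays at 5 μg/ml all lay above the 3 at 0.5 μg/ml for 1651 of 19331 tested probes (8.54%) and all below for 812 (4.2%). Over the 15059 probes on all 6 arrays, which no dose had to pass alone, these were 1052 (6.99%) and 707 (4.69%). Among them, 199 were also more than 2-fold higher on average and 39 more than 2-fold lower. The median change of the probes with no spot left out was 0.59 on the higher side and -0.54 on the lower, so the sides differed in the tail beyond 2-fold and less in the middle. Of the 15006 probes with no spot left out, 132 had at least 0.5 on the log2 scale between the nearest arrays of the doses on the higher side and 18 on the lower side. With more than 1 between the nearest arrays, so that every array at 5 μg/ml was over 2-fold above every array at 0.5 μg/ml, there were 33 probes on the higher side and 0 on the lower.

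These 33 probes include the 12 that passed the test. Their changes were 1.31 to 4.75 on the log2 scale with a median of 1.81. Their median level was 1.64 at 0 μg/ml, 2.30 at 0.5 μg/ml, and 4.52 at 5 μg/ml. Under 6 other ways of scaling or correcting the arrays the number was 22 to 36 on the higher side and 0 on the lower. The direction of the smaller differences was less stable. Of the tested probes whose doses did not overlap, 67.0% were higher at 5 μg/ml with the 75th percentile of all probes, 57.7% with quantile normalization, 54.9% with the 75th percentile of the probes detected on all 9 arrays, and 77.8% and 78.3% with no scaling and with the table of the authors. The share fell to 41.3% when dim probes were not filtered out.

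The probe with the largest change of all 15059 did not pass. It rose by 4.75 on the log2 scale with a standard error of 1.32 (limma, adjusted p = 0.318). Its level at 5 μg/ml was 7.50, 6.40, and 7.39, and at 0.5 μg/ml it was 3.73 and 3.90 in replicates 1 and 3 but -0.58 in replicate 2. All arrays of the higher dose were above those of the lower, with 1 array at 0.5 μg/ml far below the others. The largest fall, -2.24 (limma, adjusted p = 0.637), came from 1 array at 0.5 μg/ml. That array read 4.69, against -0.92 and -1.11 on the others of its dose and -1.02 to -1.64 at 5 μg/ml, so the doses overlapped. Of the 285 probes that were over 2-fold higher, 84 had an SD over 1 at 0.5 μg/ml.

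The balance of higher and lower probes moved with brightness. The 15059 probes were divided into 4 groups of equal size by their mean level over the 9 arrays. This mean includes the arrays at 5 μg/ml, so a rise itself moves a probe toward the brighter groups. The sorting is therefore not independent of the change. The median SD at 0.5 and 5 μg/ml was 0.39 and 0.30 in the dimmest group and 0.32 and 0.20 in the brightest. The part of sorting and spread in what follows was not tested. In the dimmest group 4.14% of probes were apart and higher at 5 μg/ml and 7.57% apart and lower. These shares were 5.66% and 4.86% in the next, 7.12% and 4.44% in the one after, and 11.02% and 1.91% in the brightest. The median change went from -0.12 in the dimmest group to 0.087 in the brightest. The balance depended on the scaling. In the brightest group quantile normalization gave 7.62% higher and 8.50% lower, with a median change of -0.024. In the dimmest group no scaling gave 3.98% higher and 3.03% lower, and the table of the authors 5.34% and 4.91%. With the percentile of the probes detected on all 9 arrays, the middle groups turned to 5.55% higher and 6.96% lower and to 6.77% and 8.05%. The 12 changed probes lay mostly among the brighter ones, with 1, 1, 4, and 6 from the dimmest to the brightest group. Probes more than 2-fold higher numbered 25, 76, 96, and 88 and those more than 2-fold lower 38, 30, 12, and 9.

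The spread between replicates was smallest at the higher dose, a difference that was not tested. The SD of a probe over 3 arrays had a median of 0.25 at 5 μg/ml, 0.37 at 0.5 μg/ml, and 0.34 at 0 μg/ml. The SDs of the lower doses include the replicate 2 arrays that were less like the rest. At 0 μg/ml replicates 1 and 3 correlated at 0.993, and replicate 2 with them at 0.942 and 0.940. The part of these single arrays in the SDs was not tested. Within 5 μg/ml, 363 to 1291 of the 15059 probes differed more than 2-fold between a pair of arrays (r = 0.964 to 0.984). Within 0.5 μg/ml it was 1043 to 3670 (r = 0.914 to 0.968), with 1043 for replicates 1 and 3 and 1750 and 3670 for the pairs with replicate 2. Between an array at 0.5 and an array at 5 μg/ml it was 435 to 2660, with a median of 1599 over the 9 pairs (r = 0.926 to 0.980). A pair of arrays of the same dose could therefore differ in more probes than a pair of different doses. The fewest differences between doses were those of replicate 3 at 0.5 and replicate 1 at 5 μg/ml, and the most within a dose those of replicates 2 and 3 at 0.5 μg/ml.

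**Figure D5:**
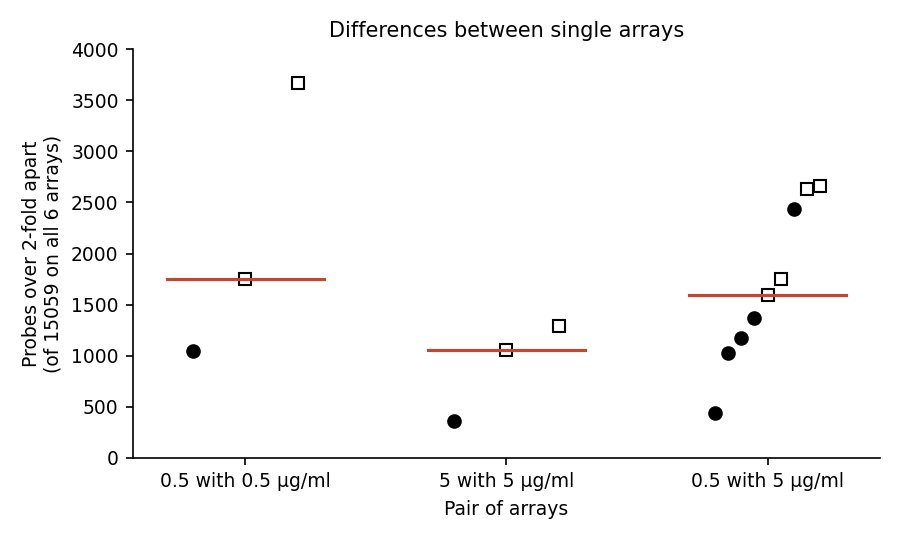
Number of probes (y axis) that differed more than 2-fold between a pair of arrays, of the 15059 on all 6 arrays, for pairs at 0.5 μg/ml (3), at 5 μg/ml (3), and with 1 array at each dose (9). Filled circles are pairs of the same scan, open squares pairs of different scans, and red lines are medians (1750, 1057, and 1599). The ranges overlap.

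The arrays were read in 2 scans, as the file headers name them. The first scan holds 2 arrays of each dose and the second 1, replicate 2 at 0.5 and replicate 3 at 5 μg/ml for the doses compared. For the 40 changed probes the difference between the doses was 1.42 to 4.07 in the first (median 2.09) and 0.93 to 4.85 in the second (median 2.33). Their direction in each scan is fixed, since they were called on these arrays and all arrays at 5 μg/ml lay above those at 0.5 μg/ml. A_1000000_P0025598 rose by 3.06 in the first scan and by 4.41 in the second. The value of the second scan rests on 1 array per dose. With the scan as a block in the limma fit 95 probes passed, 89 higher and 6 lower, including all 40. Within the first scan alone none passed (3080 at an unadjusted p under 0.05). A test of whether the step differed between the scans called no probe in limma (lowest adjusted p 0.151), with 3209 (16.7%) at an unadjusted p under 0.05 over all tested probes and 2 among the 40. Over all 15059 probes, the first scan had 305 more than 2-fold higher and 135 lower, and the single pair of arrays of the second scan 1233 and 1207. By the barcode in the array name, replicate 3 at 5 μg/ml was also on a slide of its own, so the slide and this array cannot be told apart. In the second scan the arrays of the doses compared were therefore on different slides. The intensities of replicate 3 at 5 μg/ml were also stored with fewer digits than those of the other arrays. The part of this was not tested.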

How the data were processed

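The authors deposited, per the file headers, the Cy3 spot intensity from Agilent Feature Extraction 10.7.3.1 (processed intensity, background-subtracted, low values set to a floor that 25.4% to 41.7% of probes shared), and a table of intensity values that equals it times 1 constant per array (0.754 to 1.36) up to a cap. Doses follow titles and treatments. The source name, which reads 0 μg/ml throughout, was disregarded. Control spots (1319) and outlier spots (7 to 290 per array) were left out, and no spot was saturated. Log2 intensities minus the 75th percentile of each array were fitted with limma 3.58.1 (R 4.3.3) over all 9 arrays, two-sided, with Benjamini-Hochberg adjustment over 19331 probes. The fit was run on simulated data with independent normal noise, equal spread at each dose, and no scan, slide or outlying array. There it called 12.1%, 65.2%, and 92.6% of the changes of 1, 2, and 3 on the log2 scale. Of 120 probes called, 6 had not been changed. Most changes of 1 were thus missed in the simulation, and it does not cover the differences between arrays seen here. Precision is limited by the number of arrays and by how far dim probes rise over background. The named probes were the largest rise on all 6 arrays, the highest lower bound, the lowest p among lower probes on all 6 arrays, and the largest fall among lower probes detected at 0.5 μg/ml only, all with doses that did not overlap. The comparison, lists and rules were chosen with earlier results of these data known. Lists of immune genes and cell type markers were not run, since the probes have no gene names here. Alternatives were other scalings, the authors' table, filters, blocks, array weights and leaving out arrays.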

Additional observations from a re-analysis of the deposited data

How the results depend on the processing

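The number of changed probes depended on the processing. Against 40 changed probes (12 of them on all 6 arrays), the counts were 18 (6) with quantile normalization, 18 with the 75th percentile of probes on all 9 arrays, 20 (5) with no scaling, 20 (4) with the table of the authors, 20 with a variance trend, and 31 on all 6 arrays with normexp. A filter for all 6 arrays gave 8, for all 9 arrays 9, and no filter 0 (2592 at an unadjusted p under 0.05 in limma). The 6 arrays alone gave 8 (2), an added 2-fold threshold 1 (0), and the first scan alone 0 (0). The scan as a block gave 95 (46), array weights 510 (267), of which 64 (44) were lower, and the omission of replicate 2 at 0 and at 0.5 μg/ml, chosen after seeing the data, 66 (35). The counts of distances over 1 under each scaling were also chosen then. Leaving out 1 array gave 0 to 108 (0 to 30). At 0 μg/ml, these were 16, 31, and 7 without replicates 1, 2, and 3. At 0.5 μg/ml they were 6, 11, and 108, and at 5 μg/ml 14, 3, and 0. Of the 40, 22 were also changed with normexp (43 in all). Equal replicate numbers were not taken as pairs. The deviations of arrays with the same number, 1 from each dose compared, correlated at 0.433, 0.265, and -0.054. Those of arrays with different numbers correlated at -0.579 to 0.372. In level, each array at 0 μg/ml correlated most, among those at 0.5 μg/ml, with the array of its own number (r = 0.989, 0.987, and 0.985). Whether equal numbers mark pairs cannot be told from these values. With the replicate number as a block 261 (128) passed, 243 of them higher, including all 40, and 18 lower. The median change on all 6 arrays was -0.057 with the percentile of probes on all 9 arrays, 0.27 with no scaling, 0.086 with the table of the authors, and -0.049 to 0.055 with 1 array left out. The share of probes whose doses did not overlap was 12.7% and 8.01% with no scaling. Probes at 5 μg/ml only were 442 (116 in reverse) with at least 2 arrays at a dose, and 82 to 1264 with 1 array left out. The median change, at 0.0035, was also below 0 with quantile normalization (-0.037) and with the median of probes on all 6 arrays (-0.015). None of the 4 named probes changed direction. They were picked for doses that did not overlap, so leaving out arrays could not reverse them. Filters left their fitted changes as they were. A planned scaling to spike-in spots was not run, since 9 of the 10 spike-in probes were dim, with median log2 intensities of 2.78 to 5.92. Not all of these were at the floor. The cause of these differences was not tested.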

Other observations

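One spike-in control probe, with 35 spots per array, was bright on all arrays. Its median log2 intensity was 13.09 on replicate 2 at 0 μg/ml and 13.15 on replicate 2 at 0.5 μg/ml, and 9.12 to 10.95 on the other 7 arrays. These are the arrays that correlated less with the rest. The other 9 spike-in probes had medians of 2.78 to 5.92.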
